A study of Homo sapiens with 12 samples.

Results

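Wild-type NSD2 re-expression was compared with its parent line in TKO cells, using 6 of the 12 libraries of the series. TKO cells derive from the multiple myeloma line KMS-11, and all 12 libraries carry the genotype label WHSC1(+/-), WHSC1 being an older name of NSD2. The 3 libraries called WT here came from TKO cells with an expression vector for wild-type NSD2. The 3 libraries called TKO came from cells with no vector. The other 6 libraries, with NSD2 vectors carrying D1240A or F1295A, are used only where named. Since TKO carried no vector, the presence of a vector and the presence of more NSD2 cannot be told apart in this comparison. The labels do not say whether the vector line is 1 clone or a pool, and they give no batch. The replicates are labelled biological, without saying that they came from separate cultures, so the p-values measure the spread between these libraries. Members were chosen by label alone: 13743 of the 60504 features in the table were expressed enough to be tested.

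NSD2 is a methyltransferase that places methyl groups on lysine 36 of histone H3, mainly the dimethyl form, over gene bodies and intergenic regions. In myelomas with the t(4;14) translocation, KMS-11 among them, the immunoglobulin heavy-chain locus drives high NSD2 expression. Spread of H3K36 dimethylation is known to push back H3K27 trimethylation, the mark of Polycomb repression, and NSD2 is known in myeloma for its effects on adhesion, growth and gene activation.

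Polyadenylated RNA was measured as FPKM, fragment counts scaled for gene length and library size, and the values below are FPKM after rescaling between libraries. Low values fell on steps of whole fragments, which gave an estimated depth of 54100000 to 63700000 fragments for the 6 libraries. Between 11937 and 12240 genes reached 1 FPKM in a library. Changes are WT minus TKO on the log2(FPKM + 0.5) scale, which understates the change of genes low in both groups. Genes with an adjusted p under 0.05 in limma, by the Benjamini-Hochberg method across the 13743 tested genes, are said to have risen or fallen. Features of cytosolic ribosomal RNA, which were not tested, made up 0.133% to 0.221% of the FPKM sum in TKO and 0.279% to 0.995% in WT. The part this difference plays in the results was not tested. Where a gene lies in a window of 50 neighbouring genes whose median change was 0.2 or more in size, its change less that median is given too, except for MAGEA3 and LUZP6, which were listed at 0 in one group, since such shifts moved with many results and their part in them was not tested.

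NSD2 itself (ENSG00000109685, chromosome 4, 1871424 to 1982207) measured 60.7, 60.4 and 64.6 FPKM in TKO and 196, 194 and 201 FPKM in WT. All WT libraries lay above all TKO libraries, by a log2 change of 1.66 ± 0.03 (SE, adjusted p = 1.35e-07). The FPKM values do not separate vector transcripts from those of the cells' own gene.

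Most of the expressed genes differed between WT and TKO, most by a small amount. Of the 13743 tested genes, 3844 rose (28%) and 3612 fell (26.3%), together 54.3%, and 6287 were not called. In these bulk samples fewer cells of a type and less RNA per cell cannot be told apart. At least 2-fold changes were fewer and leaned upward: 627 genes rose (4.56%) and 334 fell (2.43%), together 6.99%. In 61.9% of tested genes the 3 libraries of one group all lay above the 3 of the other. The median log2 change over all tested genes was -0.0039, and the 10th and 90th percentiles were -0.48 and 0.59. The lean was steepest among genes of low level: with a mean under 1 FPKM, 191 of 1669 tested genes rose at least 2-fold and 54 fell, while from 10 to 30 FPKM it was 50 and 59 of 3511. A gene near 0 in one group was tested only because the other group expressed it, so counts at low levels describe the tested genes and not all genes.

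**Figure D1:**
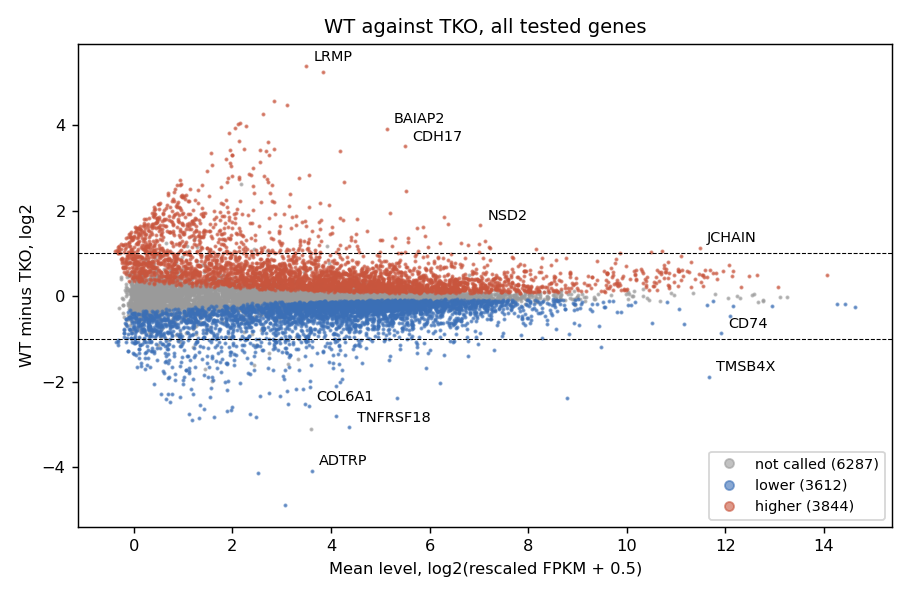
WT minus TKO log2 change (vertical axis) against the mean level over both groups, log2(FPKM + 0.5) (horizontal axis), 1 point per tested gene, coloured by call. Dashed lines mark 2-fold, and the 627 genes called above the upper line outnumber the 334 below the lower one.

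At the top of the increases stood genes almost silent in TKO. LRMP, a membrane protein of the lymphoid endoplasmic reticulum, measured 0, 0.0593 and 0.0298 FPKM in TKO and 21.99, 21.2 and 21.6 FPKM in WT, a log2 change of 5.38 ± 0.08 (SE, adjusted p = 2.78e-08). POPDC3, a Popeye-domain membrane protein known from striated muscle, measured 0.285, 0.198 and 0.208 FPKM in TKO and 27.2, 27.2 and 27.5 FPKM in WT, a log2 change of 5.25 ± 0.07 (SE, adjusted p = 2.78e-08, 5.04 less the neighbourhood median). In both genes every WT library was above 21 FPKM and every TKO library under 0.3 FPKM. SCN3A, the alpha subunit of a neuronal sodium channel, measured 0.0886, 0.079 and 0.0695 FPKM in TKO and 12.7, 13.6 and 13.7 FPKM in WT, a log2 change of 4.58 ± 0.08 (SE, adjusted p = 6.96e-08). GYPC, a glycophorin that anchors the red-cell membrane skeleton, measured 0.295, 0.158 and 0.278 FPKM in TKO and 16.3, 16.3 and 15.2 FPKM in WT, a log2 change of 4.47 ± 0.10 (SE, adjusted p = 1.43e-07). PLOD2, the lysyl hydroxylase that prepares collagen telopeptides for cross-linking, measured 0.167, 0.0395 and 0.119 FPKM in TKO and 11.8, 10.5 and 11.3 FPKM in WT, a log2 change of 4.27 ± 0.11 (SE, adjusted p = 2.16e-07). In these 3 genes every TKO library was under 0.3 FPKM and every WT library above 10 FPKM. The D1240A and F1295A vector lines had means, in the scaling of all 12 libraries, of 31.8 and 26.8 FPKM for LRMP. Their means were 26.8 and 26.9 FPKM for POPDC3 and 11.5 and 13.5 FPKM for SCN3A. They were 13.3 and 13.7 FPKM for GYPC and 8.88 and 9.73 FPKM for PLOD2. Differences from WT were not tested.

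Other genes of the same order belonged to signalling and embryonic or germline expression. FGF13, an intracellular fibroblast growth factor homolog that binds sodium channels, measured 0.0689, 0.0692 and 0.0794 FPKM in TKO and 9.21, 8.45 and 7.99 FPKM in WT, a log2 change of 3.98 ± 0.09 (SE, adjusted p = 1.79e-07). It lies on chromosome X in a stretch where the median gene fell, and its change with that neighbourhood's median removed was 4.49. PTPN13, a large cytoskeletal tyrosine phosphatase, measured 0.0098, 0 and 0 FPKM in TKO and 6.11, 8.14 and 7.52 FPKM in WT, a log2 change of 3.94 ± 0.12 (SE, adjusted p = 3.75e-07). BAIAP2, which links RAC and CDC42 to actin at membrane protrusions, differed from these in being expressed in TKO already. It measured 3.61, 4.63 and 3.37 FPKM in TKO and 64.1, 63.7 and 67.7 FPKM in WT, a log2 change of 3.92 ± 0.10 (SE, adjusted p = 2.31e-07). HBE1 encodes the epsilon globin of the embryo. Every TKO library listed it at 0, and the WT libraries held 8.63, 8.73 and 6.396 FPKM (limma, adjusted p = 4.97e-07). The annotation places parts of neighbouring globin genes within its span. MAGEA3, a cancer-testis antigen nearly identical to MAGEA6, was likewise at 0 in every TKO library and reached 7.48, 8.27 and 7.09 FPKM with the wild-type vector (limma, adjusted p = 1.98e-07). No WT value of these 5 genes overlapped a TKO value. With the D1240A and F1295A vectors, in the scaling of all 12 libraries, the means were 8.5 and 7.49 FPKM for MAGEA3. They were 8.03 and 6.56 FPKM for HBE1 and 6.33 and 7.27 FPKM for FGF13. For PTPN13 they were 2.91 and 5.37 FPKM, and for BAIAP2 60.9 and 63 FPKM. Differences of these means from WT were not tested.

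The next 5 by size were CCSER1, NCKAP1L, BCHE, CDH17 and CPVL. NCKAP1L, the blood-cell subunit of the WAVE actin-nucleating complex, went from 0.162 ± 0.0586 to 7.62 ± 0.255 FPKM (log2 change 3.62), given here and below as the mean ± SD of n = 3 libraries a group. BCHE, butyrylcholinesterase, went from 0.504 ± 0.182 to 11.7 ± 0.638 FPKM (log2 change 3.61, 3.39 less the neighbourhood median). CDH17, a cadherin of intestinal epithelium, went from 6.87 ± 0.1998 to 83.1 ± 1.45 FPKM (log2 change 3.503, 3.24 less the neighbourhood median) and reached the highest WT level of the 15 genes that rose most. CPVL, a carboxypeptidase, went from 0.708 ± 0.06903 to 12.6 ± 0.0611 FPKM (log2 change 3.44, 3.22 less the neighbourhood median), and CCSER1 from 0.00659 ± 0.00571 to 6.62 ± 0.407 FPKM (log2 change 3.81).

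**Figure D2:**
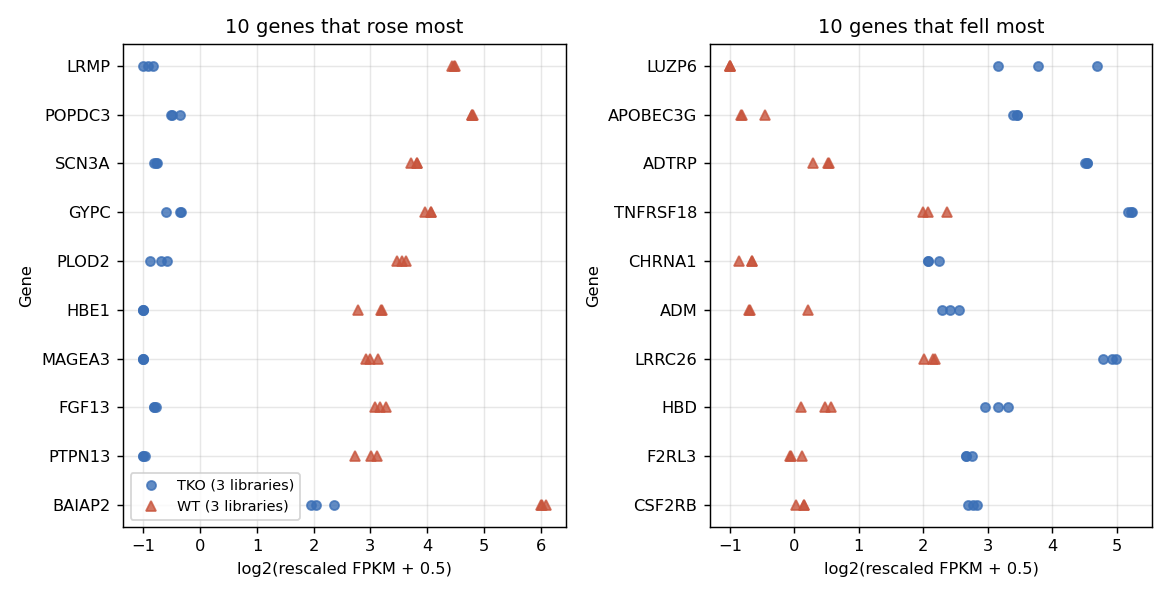
Level in each library, log2(FPKM + 0.5) (horizontal axis), of the 10 protein-coding genes that rose most (left) and fell most (right), with 3 TKO libraries as circles and 3 WT libraries as triangles. Genes were picked only where the groups did not overlap, and 9 of the 10 on the left sit near the floor in TKO.

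Among the genes that fell most were immune receptors and enzymes. APOBEC3G, a cytidine deaminase that restricts retroviruses and has close paralogs, measured 10.4, 10.5 and 9.99 FPKM in TKO and 0.0707, 0.0612 and 0.231 FPKM in WT, a log2 change of -4.13 ± 0.12 (SE, adjusted p = 3.07e-07). ADTRP, which regulates tissue factor inhibitor and hydrolyses a class of lipids, measured 22.8, 22.6 and 22.3 FPKM in TKO and 0.727, 0.928 and 0.945 FPKM in WT, a log2 change of -4.08 ± 0.08 (SE, adjusted p = 1.15e-07). TNFRSF18, the co-stimulatory receptor GITR, measured 37.3, 35.5 and 36.6 FPKM in TKO and 3.696, 3.48 and 4.67 FPKM in WT, a log2 change of -3.06 ± 0.09 (SE, adjusted p = 3.75e-07). Unlike the first 2, TNFRSF18 stayed above 3 FPKM in every WT library. CSF2RB, the shared beta chain of the receptors for interleukin 3, interleukin 5 and GM-CSF, measured 6.62, 5.97 and 6.32 FPKM in TKO and 0.606, 0.5202 and 0.603 FPKM in WT, a log2 change of -2.66 ± 0.09 (SE, adjusted p = 4.82e-07). F2RL3, a thrombin receptor, measured 5.799, 5.83 and 6.23 FPKM in TKO and 0.465, 0.449 and 0.583 FPKM in WT, a log2 change of -2.69 ± 0.09 (SE, adjusted p = 6.04e-07). Both kept similar values among the 3 libraries of each group.

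LRRC26, an accessory subunit of large potassium channels, measured 30.02, 27.1 and 31.2 FPKM in TKO and 4.04, 3.92 and 3.51 FPKM in WT, a log2 change of -2.79 ± 0.07 (SE, adjusted p = 2.40e-07). CHRNA1, the muscle acetylcholine receptor alpha subunit, measured 3.702, 4.21 and 3.69 FPKM in TKO and 0.131, 0.133 and 0.0503 FPKM in WT, a log2 change of -2.85 ± 0.11 (SE, adjusted p = 1.20e-06, -3.07 less the neighbourhood median). ADM, the vasodilator peptide adrenomedullin, measured 4.39, 4.81 and 5.38 FPKM in TKO and 0.656, 0.112 and 0.121 FPKM in WT, a log2 change of -2.81 ± 0.24 (SE, adjusted p = 5.07e-05). Its WT replicate 1 was several times above the other 2 WT libraries but still well under every TKO library. HBD, delta globin, measured 7.28, 8.42 and 9.43 FPKM in TKO and 0.9795, 0.887 and 0.573 FPKM in WT, a log2 change of -2.76 ± 0.15 (SE, adjusted p = 4.40e-06), a change opposite to that of HBE1 in the same globin cluster. LUZP6, annotated inside MTPN on chromosome 7, was listed at 0 in every WT library and held 8.47, 13.2 and 25.4 FPKM in TKO. The TKO values of LUZP6 were far apart, and reads of MTPN, which fell by 0.25 on the log2 scale (change of 0.05 less its neighbourhood median), cannot be told apart from its own. The remaining genes of the 15 that fell most were SDC1, MMP9, COL6A1, DLL4 and CCR10. COL6A1, a chain of collagen VI, went from 19.5 ± 0.6799 to 2.86 ± 0.258 FPKM (log2 change -2.57), on chromosome 21, where the median gene fell; its change less the neighbourhood median was -2.12. MMP9, a secreted gelatinase, went from 6.32 ± 0.504 to 0.631 ± 0.138 FPKM (log2 change -2.597). DLL4, a NOTCH ligand, went from 3.83 ± 0.0385 to 0.249 ± 0.0891 FPKM (log2 change -2.54), and CCR10, a chemokine receptor of plasma cells that home to mucosa, from 14.4 ± 0.506 to 2.11 ± 0.278 FPKM (log2 change -2.52).

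By absolute level, the largest gains were in translation genes and the antibody joining chain. RPS27, a small-subunit ribosomal protein, measured 13181, 14824 and 14391 FPKM in TKO and 19502, 19493 and 20415 FPKM in WT, a log2 change of 0.49 ± 0.06 (SE, adjusted p = 0.0002199). EEF1A1, the elongation factor that brings aminoacyl-tRNA to the ribosome, measured 5101, 5389 and 5502 FPKM in TKO and 7529, 7588 and 7322 FPKM in WT, a log2 change of 0.49 ± 0.04 (SE, adjusted p = 4.06e-05). JCHAIN, which joins IgA and IgM multimers, measured 1653, 1859 and 1836 FPKM in TKO and 3798, 4032 and 3914 FPKM in WT, a log2 change of 1.14 ± 0.05 (SE, adjusted p = 2.09e-06). JCHAIN alone of these more than doubled. RPS23, RPL7 (change 0.34 less its neighbourhood median) and CRIP1 also rose, with log2 changes of 0.74, 0.58 and 0.48. Ribosomal protein genes and EEF1A1 have many processed copies, and how reads were shared among them is uncertain.

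The largest loss was in TMSB4X, thymosin beta 4, which holds actin monomers. It measured 4793, 5044 and 5416 FPKM in TKO and 1352, 1364 and 1425 FPKM in WT, a log2 change of -1.88 ± 0.05 (SE, adjusted p = 2.41e-07). TMSB4X lies in the first part of chromosome X, where neighbouring genes fell too, and with the neighbourhood median removed its change was -0.98. CD74, the invariant chain of MHC class II, measured 4954, 4839 and 5078 FPKM in TKO and 2767, 2663 and 2711 FPKM in WT, a log2 change of -0.87 ± 0.03 (SE, adjusted p = 1.06e-06). FTH1, the heavy chain of the iron store ferritin, measured 2812, 2799 and 2805 FPKM in TKO and 1830.4, 1787 and 1729.5 FPKM in WT, a log2 change of -0.65 ± 0.03 (SE, adjusted p = 2.77e-06). CD74 lies in a stretch of chromosome 5 whose median gene rose, and less that median its change was -1.15. RPL39, a ribosomal protein gene, is X-linked and went from a log2 change of -0.45 to -0.03 with the median removed, when it was no longer called. MT-CO2 and MT-ATP8, mitochondrial genes, changed by -0.23 and -0.19. The MT-ATP8 call (adjusted p = 0.0486, limma) was lost when any library but WT replicate 3 was left out.

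Most amino acid transporter genes rose. Among the 25 tested, 19 rose and 2 fell, 4 did not pass the test, and the median log2 change was 0.46. That is 76% higher and 8% lower, beside 28% and 26.3% over all tested genes, whose median was -0.0039. SLC7A5 and SLC3A2 are the light and heavy chains of the LAT1 exchanger for large neutral amino acids. SLC7A5 measured 78.2, 76.9 and 75.3 FPKM in TKO and 184, 176 and 179 FPKM in WT, a log2 change of 1.22 ± 0.03 (SE, adjusted p = 1.90e-07). SLC3A2 measured 93.4, 93.3 and 95.5 FPKM in TKO and 177, 176 and 172 FPKM in WT, a log2 change of 0.89 ± 0.02 (SE, adjusted p = 2.83e-07). SLC1A5, which carries glutamine and other neutral amino acids, measured 81.5, 79.6 and 89.01 FPKM in TKO and 172, 173 and 166 FPKM in WT, a log2 change of 1.03 ± 0.04 (SE, adjusted p = 1.69e-06). In each of the 3 every WT library lay above every TKO library. SLC7A1, a carrier of cationic amino acids, went from 13.3 ± 0.212 to 25.8 ± 0.704 FPKM (log2 change 0.93). The 2 that fell were SLC43A2, from 7.18 ± 0.321 to 1.71 ± 0.145 FPKM (log2 change -1.796), and SLC7A7, from 1.98 ± 0.418 to 0.7895 ± 0.119 FPKM (log2 change -0.93), which also carry neutral or cationic amino acids.

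Aminoacyl-tRNA synthetases, which charge tRNAs with their amino acids, moved the same way but by less. Among the 41 tested, 19 rose and 5 fell (46.3% and 12.2%), beside 28% and 26.3% of all tested genes. Of the rest 17 did not pass the test, and the median log2 change was 0.10. The count that fell was 8 on the values as deposited and 8 with neighbourhood medians removed. GARS, for glycine, measured 90.8, 94.2 and 98.7 FPKM in TKO and 208, 208 and 201 FPKM in WT, a log2 change of 1.12 ± 0.04 (SE, adjusted p = 4.72e-07, 0.896 less the neighbourhood median). MARS, for methionine, measured 143, 141 and 146 FPKM in TKO and 266, 262 and 270.3 FPKM in WT, a log2 change of 0.89 ± 0.03 (SE, adjusted p = 2.83e-07). CARS, for cysteine, and AARS, for alanine, went from 35.04 ± 0.6701 to 68.2 ± 0.989 FPKM (log2 change 0.95) and from 66.5 ± 1.51 to 114 ± 1.43 FPKM (log2 change 0.78). TARSL2, a threonine synthetase paralog, fell the most of the 5 that fell, by 0.74 on the log2 scale. Translation factors leaned the same way. Among the 56 tested, 30 rose and 10 fell (53.6% and 17.9%), 16 did not pass the test, and the median log2 change was 0.11. EEF2, which moves the ribosome along the message, went from 640.2 ± 11.7 to 1089.7 ± 42.3 FPKM (log2 change 0.77), and EIF1, which guides start-codon choice, from 632 ± 9.53 to 999 ± 12.9 FPKM (log2 change 0.66). Of the 4 factors with the smallest adjusted p that fell, EIF1AX, EIF2S3 and MCTS1 are X-linked. Their log2 changes of -0.82, -0.501 and -0.32 became 0.07, 0.38 and 0.097 with the neighbourhood median removed.

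A few of the transporters and synthetases hold a short motif near their listed start sites. The motif TGATGNAA, searched on both strands, is the core of the C/EBP-ATF response element through which ATF4 is known to act in amino acid shortage. The search used the first start listed for each gene in RefSeq (GRCh38.p14), from 250 bases before it to 50 after. The motif was found in 3.62% of all 35116 promoters in that table and in 1.56% of the 9302 tested protein-coding genes with a listed promoter. Of 16 synthetases that rose and had a promoter, 6 held it (37.5%), of 4 that fell 0 did, and of 13 not called 1 did. Of the 19 transporters that rose, 16 had a promoter there and 3 of these held it (18.8%). None of the 2 that fell or the 4 not called did. Several genes, GARS and SLC7A5 among them, had no listed promoter and were not searched. Every match found in the searched promoters of the 2 lists is shown with its neighbouring bases, 30 in all. The bases run along the strand of the gene, with the 8 matching bases in capitals. Genes that rose come first, and NARS, which was not called, last:
MARS (chr12:57488053-57488082, plus strand): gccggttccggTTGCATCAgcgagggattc
CARS (chr11:3057407-3057436, minus strand): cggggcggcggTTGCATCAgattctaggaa
AARS (chr16:70289675-70289704, minus strand): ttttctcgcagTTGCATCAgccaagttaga
IARS (chr9:92293692-92293721, minus strand): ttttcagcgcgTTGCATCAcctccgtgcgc
TARS (chr5:33440956-33440985, plus strand): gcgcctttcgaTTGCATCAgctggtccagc
YARS2 (chr12:32756076-32756105, minus strand): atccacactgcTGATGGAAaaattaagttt
SLC3A2 (chr11:62881719-62881748, plus strand): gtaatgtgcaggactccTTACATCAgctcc
SLC7A1 (chr13:29595663-29595692, minus strand): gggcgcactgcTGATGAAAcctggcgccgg
SLC38A1 (chr12:46266502-46266531, minus strand): tcagacccgaaTGATGAAAagggatcagct
NARS (chr18:57621804-57621833, minus strand): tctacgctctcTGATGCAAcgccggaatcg

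In 5 of the 6 synthetases that rose the match reads TTGCATCA, with the motif on the opposite strand. In NARS it reads TGATGCAA, which is the reverse complement of those letters, so the same 8 bases stand at the start of a gene that did not pass the test. In MARS, CARS and SLC38A1 the match crosses the listed start, in AARS and YARS2 it begins 187 and 197 bases before it, and in IARS 13 bases before it. The change was 0.89 in MARS, 0.95 in CARS, 0.78 in AARS, 0.37 in IARS, 0.33 in TARS and 0.36 in YARS2 on the log2 scale. In NARS it was -0.06 (adjusted p = 0.186, limma). A match is a description of the letters and does not show that a factor binds there.

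The transcript of ATF4 itself, and genes of serine and asparagine synthesis, were looked at after their values were seen. ATF4 measured 292, 311 and 310.1 FPKM in TKO and 564, 569.7 and 565 FPKM in WT, a log2 change of 0.895 ± 0.03 (SE, adjusted p = 5.88e-07). ASNS, asparagine synthetase, measured 39.6, 38.8 and 37.7 FPKM in TKO and 87.4, 85.5 and 84.7 FPKM in WT, a log2 change of 1.14 ± 0.03 (SE, adjusted p = 2.41e-07). PHGDH, the first enzyme of serine synthesis, measured 12.8, 13.1 and 14.8 FPKM in TKO and 78.7, 75.95 and 75.2 FPKM in WT, a log2 change of 2.46 ± 0.06 (SE, adjusted p = 1.75e-07). PSPH, the last enzyme of the same pathway, also rose, from 20.2 ± 0.806 to 42.1 ± 0.8501 FPKM (log2 change 1.04). PSAT1, the enzyme between them, went the opposite way. It measured 15.5, 14.3 and 15.5 FPKM in TKO and 4.45, 4.41 and 3.89 FPKM in WT, a log2 change of -1.71 ± 0.07 (SE, adjusted p = 1.22e-06).

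Collagen-modifying enzymes, neuronal genes and metal genes leaned upward as well, beside 28% and 26.3% of all tested genes higher and lower. Of the lysyl and prolyl hydroxylases and related enzymes, 13 rose and 2 fell of 22 tested (59.1% and 9.09%, median 0.43). The list held 37 genes. Those near 0 in TKO, such as PLOD2, were tested only because WT expressed them, so no fall could be seen in them. Besides PLOD2, COLGALT2, which adds galactose to collagen, went from 0.448 ± 0.0811 to 4.31 ± 0.149 FPKM (log2 change 2.35). P4HA1 and P4HB, the catalytic and shared subunits of prolyl 4-hydroxylase, went from 6.58 ± 0.2401 to 12.7 ± 0.592 FPKM (log2 change 0.898) and from 305 ± 4.96 to 425 ± 4.06 FPKM (log2 change 0.48). Of neuronal synapse and vesicle genes, 20 rose and 4 fell of 30 tested (66.7% and 13.3%, median 0.48). CADPS2, which primes dense-core vesicles, went from 2.08 ± 0.153 to 11.3 ± 0.215 FPKM (log2 change 2.19, 2.42 less the neighbourhood median). Only 30 of the 97 genes listed there were expressed enough to be tested, and a gene silent in TKO entered only if WT expressed it. Of genes for iron, heme and zinc, 25 rose and 7 fell of 48 tested (52.1% and 14.6%, median 0.18). The zinc importers SLC39A14 and SLC39A8 went from 23.4 ± 0.283 to 39.03 ± 0.618 FPKM (log2 change 0.73) and from 20.2 ± 0.285 to 35.6 ± 1.04 FPKM (log2 change 0.803). HMOX1, which breaks down heme, fell from 27.8 ± 0.741 to 10.3 ± 0.782 FPKM (log2 change -1.39). The count of metal genes that fell was 11 on the values as deposited.

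Lymphoid and myeloid transcription factors changed in both directions. Among the 59 tested, 28 rose and 19 fell (47.5% and 32.2%), beside 28% and 26.3% of all tested genes. Of the rest 12 did not pass the test, and the median log2 change was 0.19. The ID proteins, which block helix-loop-helix factors, moved apart. ID1 measured 14.2, 14.6 and 14.7 FPKM in TKO and 62.4, 54.1 and 56.5 FPKM in WT, a log2 change of 1.95 ± 0.05 (SE, adjusted p = 2.79e-07). ID2 measured 118, 118 and 121 FPKM in TKO and 30.3, 29.7 and 25.8 FPKM in WT, a log2 change of -2.04 ± 0.06 (SE, adjusted p = 2.97e-07). In TKO every library had more ID2 than ID1, and in WT every library had more ID1 than ID2, in FPKM, which is per length. IKZF3, the factor Aiolos, measured 28.9, 30 and 28.6 FPKM in TKO and 59.2, 58.7 and 63.3 FPKM in WT, a log2 change of 1.04 ± 0.04 (SE, adjusted p = 9.75e-07). CEBPB and GATA3 rose from 12.5 ± 0.221 to 31.4 ± 0.893 FPKM (log2 change 1.298) and from 0.985 ± 0.0967 to 4.95 ± 0.258 FPKM (log2 change 1.88). LEF1, which acts at the end of WNT signalling, fell from 36.5 ± 1.25 to 12.1 ± 0.376 FPKM (log2 change -1.55). MYB and RUNX3 fell by 0.67 and 0.64 on the log2 scale, and the change of MYB less its neighbourhood median was -0.92. Of developmental factors, 20 rose and 12 fell of 42 tested (47.6% and 28.6%, median 0.18). The list held 69 genes, and those near 0 in TKO were tested only because WT expressed them, so they could not fall. FOXP2, known from neurons, went from 0.0263 ± 0.0205 to 4.88 ± 0.325 FPKM (log2 change 3.35, 3.58 less the neighbourhood median), and MEIS2 from 0.194 ± 0.118 to 2.22 ± 0.222 FPKM (log2 change 1.98), while CUX1 fell by 0.77. CUX1 lies in a stretch of chromosome 7 whose median gene fell, and less that median its change was -0.41.

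In signalling pathways several receptors and ligands near silence in TKO rose. Such genes were tested only because WT expressed them, so no fall could be seen among them. The tested genes were 28 of 70 listed receptor tyrosine kinases and ligands, 39 of 68 WNT genes and 32 of 43 NOTCH genes. They were 41 of 61 TGF-beta and BMP genes and 28 of 39 Hippo genes. The shares that rose and fell in each list stand beside 28% and 26.3% of all tested genes, and those of NOTCH genes were near them. Of receptor tyrosine kinases and ligands, 14 rose and 7 fell of 28 tested (50% and 25%, median 0.15). MET, the receptor of hepatocyte growth factor, went from 0.0297 ± 0.0296 to 1.54 ± 0.146 FPKM (log2 change 1.95, 2.18 less the neighbourhood median), and its ligand HGF, abundant in both groups, from 57.3 ± 1.83 to 89.3 ± 3.19 FPKM (log2 change 0.64). KITLG, the ligand of KIT, fell from 3.696 ± 0.0243 to 0.671 ± 0.0166 FPKM (log2 change -1.84). Of WNT genes, 14 rose and 10 fell of 39 tested (35.9% and 25.6%, median 0.09), among them the receptor FZD8, from 0.175 ± 0.0204 to 2.97 ± 0.281 FPKM (log2 change 2.36), and WLS, which carries WNT proteins to the surface, from 0.0362 ± 0.0346 to 2.83 ± 0.707 FPKM (log2 change 2.62). KREMEN2, a co-receptor of WNT inhibitors, fell from 12.6 ± 0.759 to 2.08 ± 0.108 FPKM (log2 change -2.34). Of NOTCH genes, 11 rose and 9 fell of 32 tested (34.4% and 28.1%, median -0.02); NOTCH1 fell from 5.23 ± 0.377 to 2.74 ± 0.09301 FPKM (log2 change -0.82) together with its ligand DLL4, and the neuronal ligand DNER rose from 0.0132 ± 0.00577 to 2.64 ± 0.07002 FPKM (log2 change 2.61). Of TGF-beta and BMP genes, 19 rose and 9 fell of 41 tested (46.3% and 21.95%, median 0.15). BMP6 rose from 6.305 ± 0.208 to 13.95 ± 0.362 FPKM (log2 change 1.09) and the activin subunit INHBE from 0.784 ± 0.09495 to 8.58 ± 0.327 FPKM (log2 change 2.82), while the receptor TGFBR2 fell from 7.24 ± 0.145 to 3.97 ± 0.1304 FPKM (log2 change -0.79). Of Hippo genes, 13 rose and 5 fell of 28 tested (46.4% and 17.9%, median 0.16), and YAP1, the effector restrained by the pathway, went from 0.0626 ± 0.0154 to 1.14 ± 0.145 FPKM (log2 change 1.54).

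Lists of G protein-coupled receptors, cytokines, innate adaptors and immune ligands held more genes lower than higher, beside 28% and 26.3% of all tested genes higher and lower. Of G protein-coupled receptors, 11 rose and 17 fell of 33 tested (33.3% and 51.5%, median -0.20), 9 of them at least 2-fold lower. Besides F2RL3, the adenosine receptor ADORA2A measured 24.6, 25.5 and 28.6 FPKM in TKO and 8.25, 7.99 and 9.04 FPKM in WT, a log2 change of -1.58 ± 0.07 (SE, adjusted p = 2.06e-06). The prostaglandin receptor PTGER4 fell from 22.7 ± 1.105 to 7.55 ± 0.769 FPKM (log2 change -1.53) and GPR55 from 4.39 ± 0.256 to 0.462 ± 0.0538 FPKM (log2 change -2.35). The adhesion receptor ADGRG6 rose from 0.517 ± 0.07399 to 5.94 ± 0.334 FPKM (log2 change 2.66, 2.41 less the neighbourhood median). Of cytokines and interleukin receptors, 12 rose and 16 fell of 38 tested (31.6% and 42.1%, median -0.10), again with 9 at least 2-fold lower. IL16 and IFNGR2, a subunit of the interferon gamma receptor, fell from 17.7 ± 0.9805 to 5.47 ± 0.183 FPKM (log2 change -1.61) and from 24.2 ± 0.938 to 7.87 ± 0.282 FPKM (log2 change -1.56, -1.202 less the neighbourhood median). IL32 rose from 91.6 ± 1.14 to 203 ± 11.2 FPKM (log2 change 1.14). IL2RG, the common gamma chain, is X-linked. It fell by 0.89 on the log2 scale, and less its neighbourhood median its change was -0.33. Of innate sensors and adaptors, 6 rose and 15 fell of 36 tested (16.7% and 41.7%, median -0.10), among them MYD88 and IFIH1, which fell by 0.58 and 0.48. Of checkpoint, SLAM and NK ligand genes, 4 rose and 8 fell of 23 tested (17.4% and 34.8%, median -0.13). The inhibitory receptor LAIR1 measured 113, 118 and 108 FPKM in TKO and 41.6, 41.7 and 46.8 FPKM in WT, a log2 change of -1.37 ± 0.05 (SE, adjusted p = 1.18e-06).

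Tetraspanins, which organise membrane microdomains, split. Of these and related surface proteins, 13 rose and 11 fell of 28 tested (46.4% and 39.3%, median 0.07). CD9 measured 26.4, 27.2 and 27.8 FPKM in TKO and 6.38, 5.26 and 6.44 FPKM in WT, a log2 change of -2.09 ± 0.08 (SE, adjusted p = 8.33e-07). CD82 measured 29.4, 27.3 and 30.9 FPKM in TKO and 7.31, 7.36 and 6.94 FPKM in WT, a log2 change of -1.95 ± 0.06 (SE, adjusted p = 2.92e-07). CD37, a tetraspanin of B cells, measured 5.29, 6.27 and 5.53 FPKM in TKO and 21.8, 19.9 and 18.96 FPKM in WT, a log2 change of 1.74 ± 0.08 (SE, adjusted p = 2.04e-06). CD9 and CD82 were lower and CD37 higher in every WT library than in any TKO library. TSPAN17 rose from 11.6 ± 0.646 to 29.6 ± 0.3604 FPKM (log2 change 1.31), in a stretch of chromosome 5 whose median rose, and its change less that median was 0.75.

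Chromatin regulators changed little in size, and the shares of H3K4 enzymes that rose and fell were near the 28% and 26.3% of all tested genes. Of H3K4 enzymes 6 rose and 6 fell of 22 tested (27.3% and 27.3%, median -8e-05), of H3K9 and H4K20 enzymes 7 rose and 10 fell of 27 tested (25.9% and 37.04%, median -0.04), of remodeller subunits 12 rose and 14 fell of 52 tested (23.1% and 26.9%, median -0.03), and of acetylation genes 8 rose and 9 fell of 44 tested (18.2% and 20.5%, median -0.03). No gene in these 4 lists was called with a 2-fold change on the log2(FPKM + 0.5) scale. KDM5B, an H3K4 demethylase of low level, went from 0.366 ± 0.0866 to 1.21 ± 0.0807 FPKM (log2 change 0.98). CBX1, which binds methylated H3K9, fell from 109 ± 3.605 to 69.5 ± 1.81 FPKM (log2 change -0.65). The H3K9 and H4K20 count that fell was 6 without TKO replicate 1 and 6 without WT replicate 2. Of PRC1 subunits, 8 rose and 5 fell of 24 tested (33.3% and 20.8%, median -0.02). BCOR and SCML2, the PRC1 genes that fell 2-fold, are both X-linked. Their log2 changes of -1.004 and -1.12 became -0.12 and -0.22 with the neighbourhood median removed. Of cohesin, condensin and architecture genes, 5 rose and 20 fell of 42 tested (11.9% and 47.6%, median -0.10), and with neighbourhood medians removed 3 rose and 22 fell. NCAPD3, a condensin II subunit on chromosome 11, fell from 50.1 ± 0.816 to 35.3 ± 1.09 FPKM (log2 change -0.497). HMGA1, an architectural protein that bends DNA, rose from 194 ± 1.96 to 289.97 ± 9.03 FPKM (log2 change 0.58).

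Splicing and nuclear transport genes changed by small amounts, with counts that stand beside 28% and 26.3% of all tested genes higher and lower. Of splicing factors, 16 rose and 34 fell of 91 tested (17.6% and 37.4%, median -0.06), and with neighbourhood medians removed 16 rose and 35 fell. PRPF3, a component of the spliceosomal tri-snRNP, fell from 92.3 ± 0.798 to 71.98 ± 2.56 FPKM (log2 change -0.36), and SRSF6, an SR protein, from 121 ± 1.55 to 100.2 ± 1.54 FPKM (log2 change -0.28). MBNL2, a splicing regulator known from muscle, rose from 0.2701 ± 0.177 to 3.05 ± 0.3101 FPKM (log2 change 2.22, 1.59 less the neighbourhood median). Of nuclear pore and transport genes, 11 rose and 22 fell of 60 tested (18.3% and 36.7%, median -0.07). IPO5, an importin on chromosome 13, rose from 64.1 ± 0.751 to 109 ± 1.49 FPKM (log2 change 0.76), and less its neighbourhood median its change was 0.12. RANBP2, a nucleoporin on chromosome 2, rose from 11.1 ± 0.163 to 17.5 ± 0.4505 FPKM (log2 change 0.63) and kept 0.64 less the median.

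Cytoskeletal and metabolic genes were mixed, again beside 28% and 26.3% of all tested genes higher and lower. Of actin and myosin genes, 32 rose and 36 fell of 94 tested (34.04% and 38.3%, median -0.06), 12 of them at least 2-fold higher. PLS3, an actin bundler on chromosome X, measured 7.85, 8.39 and 7.66 FPKM in TKO and 28.8, 29.1 and 28.2 FPKM in WT, a log2 change of 1.79 ± 0.05 (SE, adjusted p = 2.40e-07, 2.21 less the neighbourhood median). LCP1, the plastin of blood cells, fell from 109 ± 3.43 to 68.4 ± 1.09 FPKM (log2 change -0.67), and LSP1, another actin-binding protein of blood cells, from 114 ± 1.998 to 55.1 ± 1.44 FPKM (log2 change -1.05). Of microtubule genes, 26 rose and 10 fell of 63 tested (41.3% and 15.9%, median 0.11). TTLL7, which adds glutamate chains to tubulin, went from 0.168 ± 0.133 to 6.596 ± 0.403 FPKM (log2 change 3.43). Of glycosyltransferases, 32 rose and 17 fell of 74 tested (43.2% and 22.97%, median 0.09), led by ST6GAL1, which caps glycans with sialic acid. ST6GAL1 measured 1.46, 1.22 and 1.17 FPKM in TKO and 10.4, 11.1 and 11.1 FPKM in WT, a log2 change of 2.68 ± 0.08 (SE, adjusted p = 3.90e-07). Of genes of the TCA cycle, pentose phosphate and glutamine, 24 rose and 15 fell of 58 tested (41.4% and 25.9%, median 0.04). PCK2 and GPT2, mitochondrial enzymes at the exit and entry of the cycle, rose from 10.8 ± 0.8498 to 23.7 ± 0.547 FPKM (log2 change 1.103) and from 7.71 ± 0.684 to 18.3 ± 0.972 FPKM (log2 change 1.202). PDHA1, a pyruvate dehydrogenase subunit encoded on chromosome X, fell by 0.95 on the log2 scale, and its change was -0.07 less the neighbourhood median. Of lysosomal genes, 32 rose and 24 fell of 76 tested (42.1% and 31.6%, median 0.0011). LAPTM4B rose from 32.4 ± 0.194 to 87.3 ± 2.28 FPKM (log2 change 1.42) while its blood-cell paralog LAPTM5 fell from 39.4 ± 1.398 to 21.3 ± 0.569 FPKM (log2 change -0.87).

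**Figure D3:**
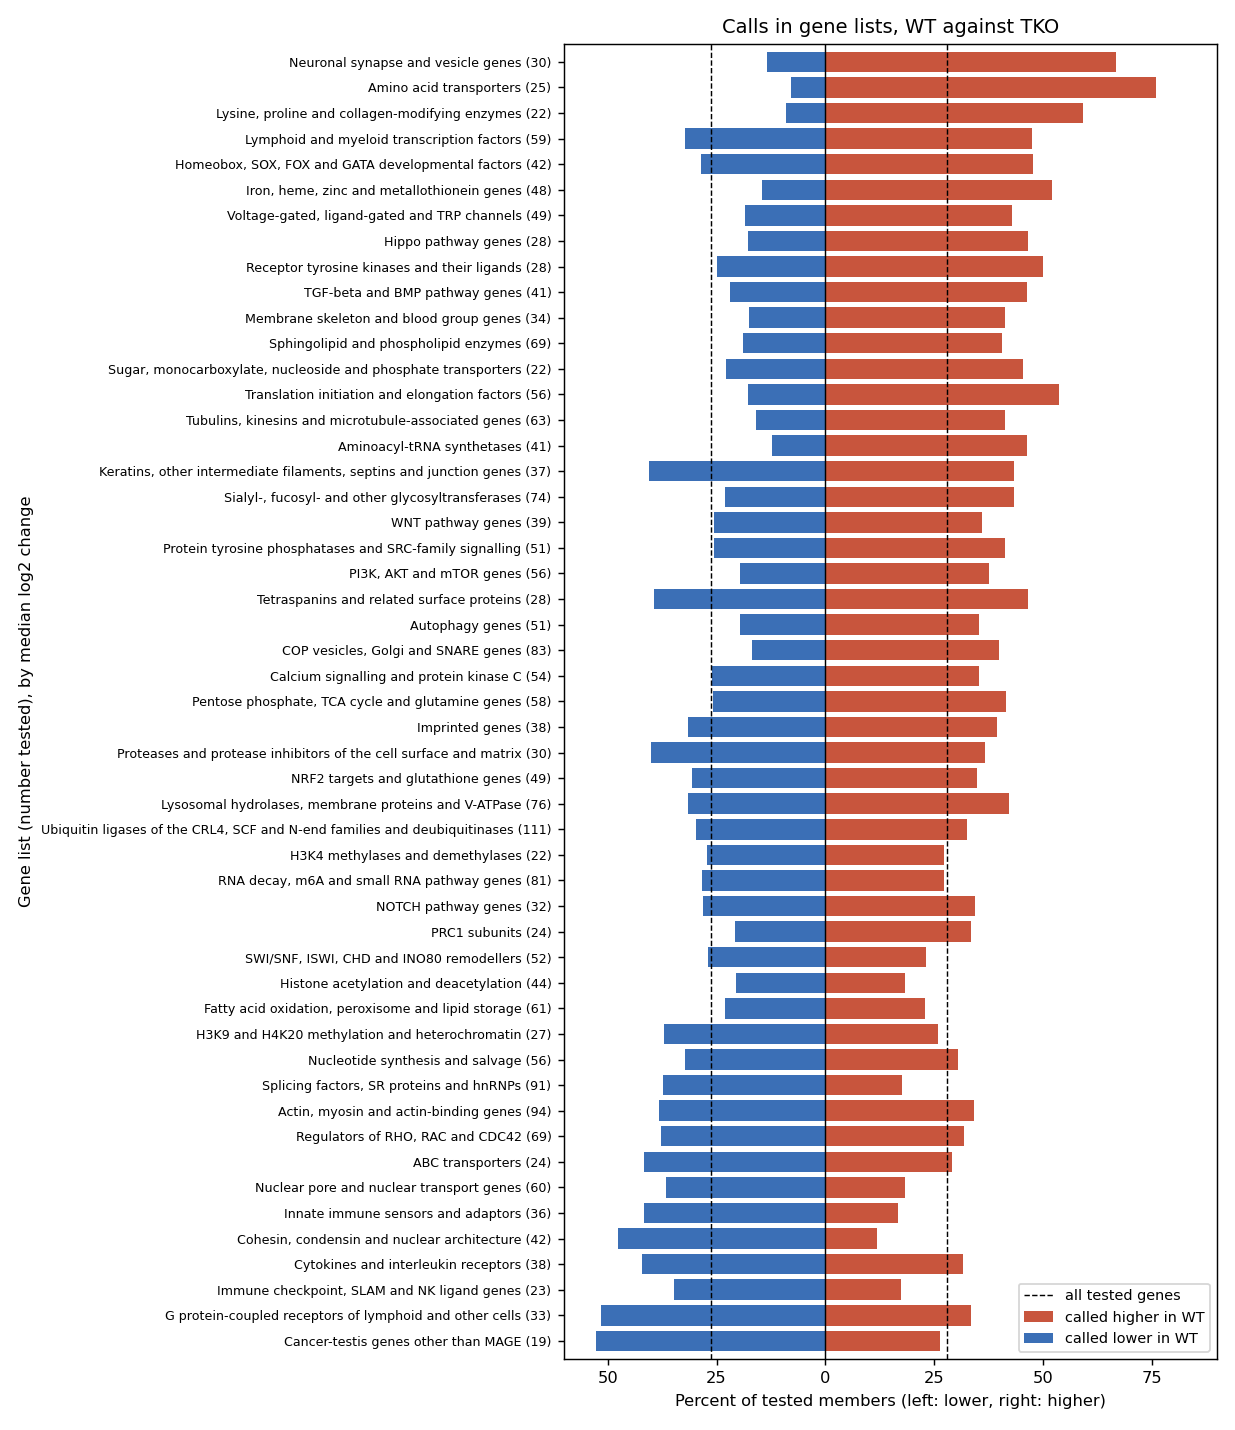
Percent of tested members called higher in WT (right) or lower in WT (left) for gene lists with at least 19 tested genes, ordered by median log2 change, with dashed lines at the 28% and 26.3% of all tested genes. Amino acid transporters have 19 of 25 members higher and cohesin, condensin and architecture genes 20 of 42 lower.

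In parts of the genome neighbouring genes moved together. The tested genes were cut, in chromosome order, into 274 windows of 50. In 17 windows the median log2 change was at least 0.2 and in 21 at most -0.2, and these 38 windows held 1909 genes. Neighbouring windows of the same direction formed longer stretches. The lowest was on chromosome X from 276322 to 46545457 (GRCh38), where 83 of 100 tested genes fell and 5 rose, with a median of -0.89. A second stretch of X, from 68828997 to 156025710, had 180 of 261 genes lower and a median of -0.46. Between them X showed no such shift. On chromosome 13 from 47745736 to 114346637, 108 of 131 genes rose and 4 fell, with a median of 0.54, the highest of any stretch. On chromosome 5 from 146113038 to 181324685, 116 of 153 rose (median 0.48), and on chromosome 10 from 97677424 to 133424572, 120 of 171 rose (median 0.38).

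Other stretches were lower in WT. All 3 windows of chromosome 21 were lower, with 93 of 158 genes lower and a median of -0.36. The longest lower stretch by genes lay on chromosome 7 from 98385801 to 158956747, where 197 of 326 genes fell (median -0.30). The first window of chromosome 8, from 213186 to 22036897, had a median of -0.38, and the last of chromosome 18, from 58481247 to 80247546, a median of -0.31. In the first X stretch the medians of WT replicates 1, 2 and 3 against the TKO mean were -0.85, -0.90 and -0.87. Those of the TKO libraries, each against the mean of the other TKO libraries, lay between -0.02 and 0.02. The stretches were picked by their WT minus TKO medians, so the distance of WT from TKO in them follows from that choice. In the chromosome 13 stretch the WT libraries gave 0.53, 0.53 and 0.55. Smaller stretches were less even: on chromosome 2 from 172427354 to 183215400 the 3 gave 0.10, 0.23 and 0.23, and on chromosome 6 from 13621498 to 30064909 they gave -0.32, -0.22 and -0.24.

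The libraries of cells with mutant NSD2 vectors gave values for the same stretches, against the same TKO libraries and in the scaling of all 12. For the first X stretch they were -0.83 in D1240A and -0.88 in F1295A, beside -0.89 in WT. For the chromosome 13 stretch they were 0.56 and 0.54, beside 0.53, and for the chromosome 7 stretch -0.29 and -0.32, beside -0.30. On chromosome 6 from 13621498 to 30064909 the medians were -0.26 in WT, -0.25 in F1295A and 0.01 in D1240A. Structural RNA classes made up 63.69% of the FPKM sum in D1240A replicate 2, beside 2.46% and 2.48% in D1240A replicates 1 and 3. The part of D1240A replicate 2 in the D1240A values was not tested. These comparisons share the TKO libraries, so the values are set side by side and not tested against each other.

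With each window's median removed, 3650 genes rose and 3280 fell, and 3150 of the 3844 risen and 2749 of the 3612 fallen genes were still called in the same direction. All 30 of the genes that changed most were among those still called. Of the 454 genes that the naming rule picks besides NSD2, 28 lost their call and 17 turned sign. Some genes of modest change came near 0 or turned sign. LAMP1, a lysosomal membrane protein on chromosome 13, went from a change of 0.53 to 0.003. CUL4A, a ubiquitin ligase scaffold there, went from 0.57 to 0.05. On chromosome X, USP9X, a deubiquitinase, went from -0.67 to 0.21, and ATRX, a chromatin remodeller, from -0.62 to -0.06. What the genes of a stretch share beyond position was not tested.

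**Figure D4:**
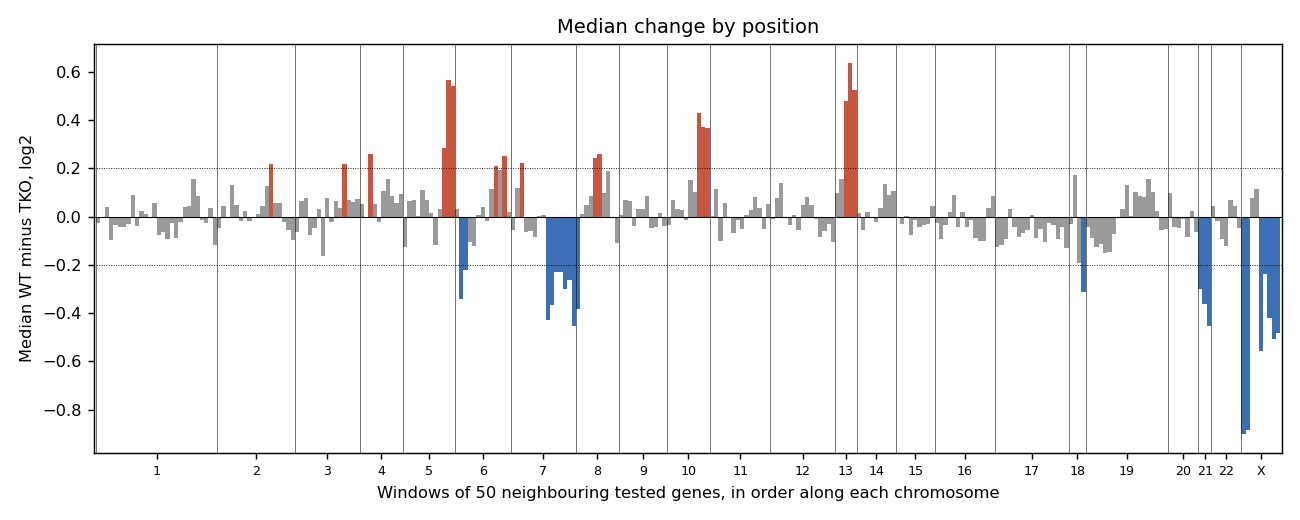
Median WT minus TKO log2 change (vertical axis) of each window of 50 neighbouring tested genes, in order along the chromosomes (horizontal axis), with dotted lines at 0.2 and -0.2. Long runs above the upper line lie on chromosomes 5, 10 and 13, and runs below the lower line on 7, 21 and X.

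Genes with long genomic spans rose more often than short ones. Of 846 tested genes spanning over 200 kb, 384 rose and 163 fell, 125 and 15 of them at least 2-fold, with a median log2 change of 0.16. Of 2286 genes spanning under 5 kb, 437 rose and 576 fell, 57 and 86 at least 2-fold, with a median of -0.05. The share that rose grew with each class between, from 921 rising and 999 falling of 3482 at 5 to 20 kb to 528 rising and 337 falling of 1461 at 100 to 200 kb. Below 50 kb that growth was absent among protein-coding genes. There 29.9% rose under 5 kb, 28.1% at 5 to 20 kb and 27.5% at 20 to 50 kb. At a mean of at least 3 FPKM these shares were 29.9%, 29% and 25.9%. Among the 30 genes that changed most, CCSER1 and FGF13, which rose, are examples of long genes, and ADM and F2RL3, which fell, of short ones. These were picked to illustrate the classes, and not all of the 30 followed them: MAGEA3 rose and spans under 5 kb. Without chromosomes 13, 21 and X the long genes numbered 358 higher and 140 lower, and with window medians removed 351 and 145. At a mean of at least 3 FPKM the lean was smaller, with 210 higher and 138 lower of 565 long genes and a median of 0.06. The short genes hold more non-coding features: among protein-coding genes under 5 kb, 286 rose and 305 fell of 958.

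**Figure D5:**
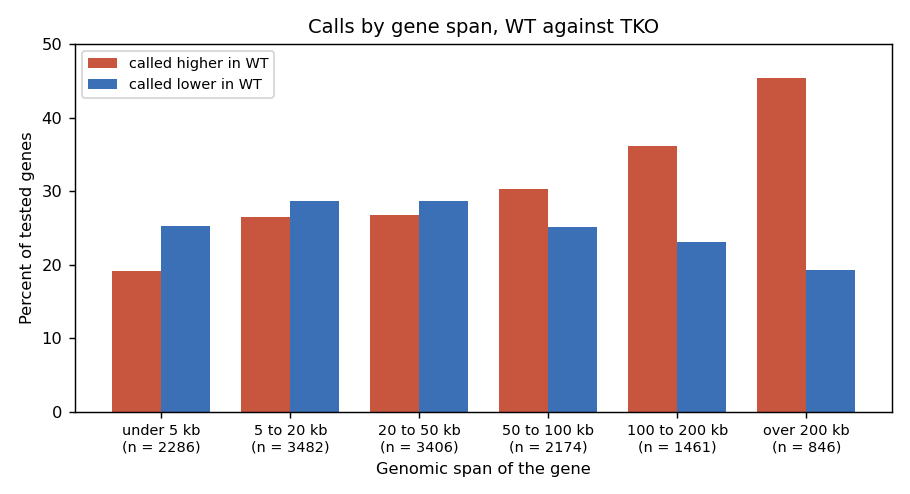
Percent of tested genes called higher (left bars) or lower (right bars) in WT, by genomic span of the gene. The higher share is the larger in the 3 classes of at least 50 kb, with 384 of 846 genes higher over 200 kb.

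Non-coding classes rose less often than all tested genes, of which 28% rose and 26.3% fell. Of 677 tested antisense genes 73 rose (10.8%) and 170 fell (25.1%), with a median log2 change of -0.14. Of 473 long intergenic RNAs 71 rose (15%) and 110 fell (23.3%, median -0.07). The shares that fell were thus not above that of all tested genes. Of 11401 protein-coding genes 3525 rose (30.9%) and 3130 fell (27.5%, median 0.01), and of 704 pseudogenes 109 rose (15.5%) and 105 fell (14.9%). In a fit without a filter on low values, 44 of these same 677 antisense genes rose and 106 fell. The sources used here do not say whether counting used strand, so reads of an antisense gene and of its sense partner cannot be told apart. AC008957.1 on chromosome 5 measured 0.699, 0.474 and 0.328 FPKM in TKO and 4.999, 5.29 and 5.68 FPKM in WT, a log2 change of 2.56 ± 0.14 (SE, adjusted p = 5.84e-06). OVAAL rose from 1.27 ± 0.224 to 4.82 ± 0.337 FPKM (log2 change 1.59), and MIR210HG, host of a microRNA known from hypoxia, from 1.39 ± 0.223 to 4.74 ± 0.648 FPKM (log2 change 1.47). ITGB2-AS1, which overlaps the integrin gene ITGB2, measured 2.61, 2.58 and 2.83 FPKM in TKO and 0.253, 0.398 and 0.443 FPKM in WT, a log2 change of -1.88 ± 0.12 (SE, adjusted p = 1.07e-05, -1.43 less the neighbourhood median). MIR497HG fell from 2.83 ± 0.192 to 0.5398 ± 0.144 FPKM (log2 change -1.69).

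The labelled cell type, plasma cell, was checked against marker genes. The 12 plasma cell markers summed to 2482 to 2698 FPKM in TKO and 4905 to 5143 in WT, most of it JCHAIN. Of the 10 tested, 5 rose and 4 fell (50% and 40%), beside 28% and 26.3% of all tested genes. XBP1 and PRDM1, factors of the secretory program, rose by 0.74 and 0.69 on the log2 scale, and IRF4 by 0.41. PRDM1 changed by 0.48 less its neighbourhood median. MZB1 measured 262, 260 and 272 FPKM in TKO and 248, 251 and 245 FPKM in WT. POU2AF1 measured 76.2, 71.6 and 75.8 FPKM in TKO and 66.7, 66.8 and 65.7 FPKM in WT. FCRL5 and CD27 were under 0.5 FPKM in all 6 libraries. SDC1, the surface marker CD138, was low in TKO and lower in WT. It measured 3.95, 4.42 and 4.03 FPKM in TKO and 0.313, 0.255 and 0.161 FPKM in WT, a log2 change of -2.64 ± 0.11 (SE, adjusted p = 1.73e-06). CD38 measured 1.23, 0.741 and 0.655 FPKM in TKO and 0.374, 0.388 and 0.322 FPKM in WT, so these 2 surface markers were near absent in WT. Most markers of other cell types were at or near 0, with a few expressed at low levels. EPOR, the erythropoietin receptor, went from 4.45 ± 0.213 to 5.43 ± 0.267 FPKM (log2 change 0.26) and EPCAM, an epithelial adhesion protein, from 1.37 ± 0.0783 to 2.81 ± 0.144 FPKM (log2 change 0.83), both called higher. HBB, beta globin, went from 2.36 ± 1.101 to 0.0604 ± 0.05602 FPKM (log2 change -2.28) and TRAC, the T cell receptor alpha constant segment, from 1.66 ± 0.438 to 0.826 ± 0.121 FPKM (log2 change -0.69), both called lower. The part of these markers in other results was not tested. Of 12 myeloid markers none was tested and 11 were under 0.5 FPKM in all 6 libraries, with sums of 0.817 to 0.929 in TKO and 0.313 to 0.835 in WT. The 12 T and NK cell markers summed to 4.93 to 5.14 in TKO and 3.30 to 4.04 in WT, with 9 under 0.5 FPKM throughout. The 12 erythroid and megakaryocyte markers summed to 7.03 to 8.64 and 5.49 to 5.98, with 5 at 0 in all libraries, and the 14 epithelial, fibroblast and endothelial markers to 2.22 to 2.77 and 3.46 to 3.69.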

How the data were processed

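Polyadenylated RNA was sequenced from 12 libraries in 4 groups of 3, of which the 3 WT and 3 TKO libraries enter the comparison. The authors deposited 1 table of FPKM for 60504 features. The submitters' processing notes name Trimmomatic 0.36, FastQC 0.11.4, STAR 2.7.9a, RSEM 1.3.1, DESeq2 and the build GRCh38, without saying which step made the values. The unit was read from the values, and the sources used here do not give the annotation release. Names were matched to GENCODE 29 for position and class.

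Libraries were rescaled by a trimmed mean of log ratios over genes at 1 FPKM or more, with 30% trimmed on each side. Structural RNA classes (7089 features) were left out. Genes at 0.5 FPKM or more in at least 3 of the 6 libraries were tested with limma 3.58.1 (trend, R 4.3.3) on log2(FPKM + 0.5), with Benjamini-Hochberg adjustment over all tested genes. The fit was tested on simulated data. Windows hold 50 neighbouring tested genes, and a neighbourhood median is that of the gene's window. Other work used Python 3.11.15 and pandas 2.3.3.

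The lists and the rule for named genes were chosen with earlier results of these data known. Named genes are NSD2, the 15 protein-coding genes with the largest log2 change each way, with groups that do not overlap and a mean of at least 2 FPKM in the higher group, the 6 with the largest FPKM difference each way, 6 non-coding genes each way, and up to 4 called members of each list each way by smallest adjusted p. Of these the text gives a selection, and some items are not reported here. Genes outside the rule are identified as such or named as motif holders, markers or overlapping genes. Alternatives covered the scaling, pseudocount, filter, libraries in the fit, replicate block, structural RNAs, window medians and leaving out each library.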

Additional observations from a re-analysis of the deposited data

Results flagged for a closer look

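Structural RNA features, which entered no comparison, took a larger share of the FPKM sum in WT than in TKO. Ribosomal RNA features made up a mean of 0.559% in WT (0.995%, 0.279% and 0.403% in replicates 1, 2 and 3) and 0.174% in TKO (0.133%, 0.170% and 0.221%). Features of the class misc_RNA made up 0.483% in WT (0.477%, 0.406% and 0.566%) and 0.233% in TKO (0.211%, 0.249% and 0.240%). In both classes every WT library lay above every TKO library, and the shares were not tested.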

How the results depend on the processing

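The counts over all genes that rose or fell, in each direction and at 2-fold, stayed within 1.5 times under all alternatives tried. Counts within lists and classes, over the genes tested in the main fit, moved further in places: synthetases lower went from 5 to 8 (values as deposited, or window medians removed), metal genes lower from 7 to 11 (as deposited), H3K9 and H4K20 genes lower from 10 to 6 (without TKO replicate 1 or WT replicate 2), fatty acid genes higher from 14 to 9, cancer-testis genes higher from 5 to 3, COP and SNARE genes lower from 14 to 9, and antisense genes from 73 and 170 to 44 and 106 (no filter). The values as deposited gave 3504 genes higher and 4153 lower, and the median over all genes was then -0.035. A pseudocount of 0.1 FPKM gave 848 genes higher and 497 lower by at least 2-fold, and 1 FPKM gave 426 and 230. Leaving out 1 library at a time gave 6741 to 6848 genes called, 3479 to 3576 higher and 3230 to 3300 lower, and 986 to 1033 changed at least 2-fold. With the replicate block, 7144 genes were called, 3679 higher and 3465 lower, and 451 of 454 named genes kept their call. The deviations of same-numbered libraries from the means of their own groups correlated at 0.012, 0.048 and 0.042. The numbers were therefore not taken to pair the libraries. Each of the 30 genes of largest change kept its call under every alternative. With window medians removed, 17 genes turned sign: HDAC2 to -0.001609, MAML1 to -0.1467, HNRNPAB to -0.1518, DIS3 to -0.1397, KMT2E to 0.1187, KDM1B to 0.0596, RHEB to 0.05252, WWC3 to 0.001953, ARHGAP6 to 0.1134, PRDX4 to 0.2636, AGPAT3 to 0.1299, VAMP7 to 0.05466, EIF1AX to 0.06598, EIF2S3 to 0.3809, MCTS1 to 0.09707, USP9X to 0.2072 and STXBP2 to 0.0009201. These values differ from the reported ones by the median of the gene's own window, which the alternative subtracts. Library depth was estimated and not given, and values of a few fragments limit the genes near 0.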
